A study of Mus musculus with 6 samples.

Results

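The elastic fibre genes of the injured artery were followed here: elastin, the fibrillins, fibulins 1, 2 and 5, the microfibril-associated proteins Mfap4 and Mfap5, and the oxidases Lox and Loxl1. They were chosen by name, as every probe set whose single annotated gene symbol was one of 10 listed genes. Of the 10 genes, 9 had such a probe set, 19 probe sets in all, among 18194 genes measured. The fibrillin gene Fbn1 was not analysed here. The samples were carotid arteries of wild-type (WT) mice and of mice with a global knockout of the transcription factor IRF4 (IRF4 KO), all taken 14 days after a wire injury. Each genotype had 3 Affymetrix arrays, and each array held RNA pooled from 3 to 5 vessels. The labels name neither strain, sex and age nor the deleted part of Irf4. The values are log2 probe set intensities, and differences (also called changes, whether or not they passed a test) are IRF4 KO minus WT on that scale.

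Elastic fibres give arteries their recoil. Smooth muscle cells and fibroblasts secrete tropoelastin, the product of Eln, which is deposited on a scaffold of fibrillin microfibrils with the help of fibulins. Lysyl oxidases then join the tropoelastin molecules by covalent crosslinks, and in large arteries the fibres form the lamellae between layers of smooth muscle. Tissue identity was checked on Myh11, the myosin heavy chain of smooth muscle, which read 11.44 to 12.30 over the 6 arrays.

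No elastic fibre gene differed between the genotypes by the test used. In limma, 0 of the 9 passed an adjusted p of 0.05, as did 0% of all genes, and the smallest unadjusted p among the 9 was 0.125. None of the 9 reached an unadjusted p under 0.05, against 1.49% of all genes. The genotypes overlapped in all 9, while 5.68% of all genes had no overlap. Of the 9 genes, 8 had the higher mean in IRF4 KO, where 49.7% of all genes did, and their median change was 0.44, against -0.0015 over all genes. Without IRF4 KO 1 the count was 5 of 9, without WT 1 or WT 2 it was 6, and without IRF4 KO 3 it was 7. It was 8 without IRF4 KO 2 or without both WT 3 and IRF4 KO 1, and 9 without WT 3 alone. The changes ran from -0.29 for Fbn2 to 0.59 for Loxl1. The median was 0.11 without WT 1, 0.12 without IRF4 KO 1 and 0.96 without WT 3, so its size moved with the array left out. With both WT 3 and IRF4 KO 1 left out it was 0.41. In data simulated for this comparison, with independent noise, changes were placed in genes brighter than the median. There limma found 18% of the changes of 1 log2 unit and 69% of the changes of 2 log2 units. These shares do not measure the chance of finding a change in the members. Their median standard error was 0.41, against 0.23 over all genes.

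The members differed more along a pattern shared by WT 3 and IRF4 KO 1, which exceeded the other arrays by 0.80 to 2.20 log2 units in 6 genes. These were the 2 highest arrays for Eln, Fbn2, Fbln2, Fbln5, Lox and Loxl1, that is for 6 of 9 genes, where 17.5% of all genes had them highest. Fbln1, Mfap4 and Mfap5 did not follow it. In 5 of the 9 genes the mean of these arrays exceeded that of the other 4 by more than 1 log2 unit, as in 4.14% of all genes. The same arrays had the lowest levels of the poly-A spike-in controls, bacterial transcripts added before labelling, at 4.93 and 5.14 against 7.35 to 9.26 in the others. Since low-control and high-control arrays were present in either genotype, each comparison is also given within these sets: IRF4 KO 1 against WT 3, and IRF4 KO 2 and 3 against WT 1 and 2. The sets were defined with these data known. The difference between the 3′ and 5′ actin control probe sets, a sign of RNA quality, was 2.12 and 1.43 in WT 3 and IRF4 KO 1. It was 1.54 to 3.12 in the others, highest in WT 1. For the Gapdh control probe sets it was 3.36 and 1.52, against 1.59 to 3.35 in the others, highest in WT 3. Their part in the results was not tested.

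**Figure D1:**
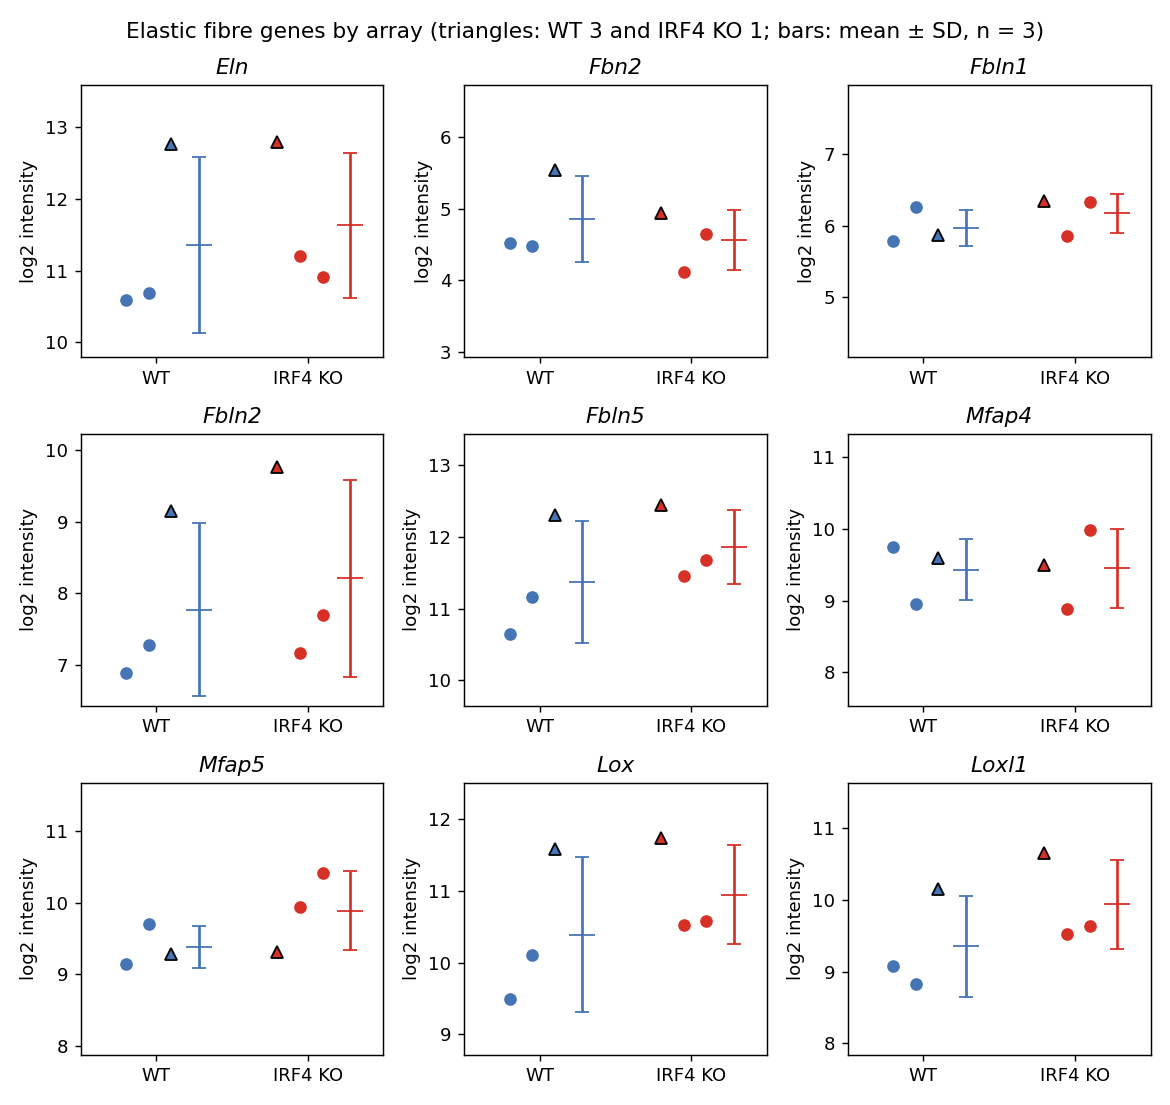
Log2 intensity of 9 elastic fibre genes on each array, with a vertical span of equal size in each panel. Circles and triangles are arrays (triangles, WT 3 and IRF4 KO 1) and bars are the mean ± SD of 3 arrays. Eln, Fbn2, Fbln2, Fbln5, Lox and Loxl1 have both triangles on top, while Fbln1, Mfap4 and Mfap5 do not.

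Elastin was among the members that varied most between arrays. Eln read 10.60, 10.69 and 12.77 in WT 1 to 3, and 12.79, 11.20 and 10.91 in IRF4 KO 1 to 3. The high arrays were 1 of each genotype and differed by 0.019, and the other IRF4 KO arrays lay above the other WT arrays by 0.41. The genotype means were 11.35 ± 1.23 and 11.63 ± 1.01 (SD, n = 3), a difference of 0.28 with a 95% interval of -1.24 to 1.80 (limma adjusted p = 0.999). The interval includes a doubling and a halving. Without WT 1, WT 2 or IRF4 KO 1 the change turned to -0.098, -0.050 or -0.30.

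A second Eln probe set gave another reading of the same pair of arrays. It read 5.73, 6.56 and 7.63 in WT and 10.31, 6.95 and 6.75 in IRF4 KO. On this probe set IRF4 KO 1 exceeded WT 3 by 2.68, and the other IRF4 KO arrays exceeded the other WT arrays by 0.70. The change was 1.36 (SE 0.91, limma unadjusted p = 0.174, in the fit over 45037 probe sets). It was 0.21 without IRF4 KO 1 and 0.91 without WT 1. With the spike-in level added as a block, the unadjusted limma p was 0.00603, the smallest of the member probe sets, and the adjusted p was 0.999. The annotation lists the same source sequence for both Eln probe sets.

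The microfibril genes behaved differently from each other. Fbn2, which encodes fibrillin-2, a microfibril protein made mostly in development, read 4.53, 4.49 and 5.55 in WT and 4.94, 4.11 and 4.65 in IRF4 KO. It was the 1 member with a lower mean in IRF4 KO (4.57 ± 0.42 against 4.85 ± 0.60, change -0.29, limma adjusted p = 0.999). Both means were under 4.89, the median over all genes. IRF4 KO 1 lay 0.61 below WT 3, and the other IRF4 KO arrays 0.13 below their WT counterparts. Without WT 3 alone the change of Fbn2 turned to 0.061. Its second probe set, at 3.91 ± 0.92 and 3.69 ± 0.53, differed by -0.22.

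Mfap4 and Mfap5 encode glycoproteins that bind fibrillin microfibrils. Mfap4 read 9.75, 8.95 and 9.59 in WT and 9.50, 8.88 and 9.98 in IRF4 KO, and the genotype means were 0.021 apart with a 95% interval of -0.73 to 0.77. That sign turned without WT 2 (-0.22), IRF4 KO 1 (-0.0017) or IRF4 KO 3 (-0.24), and with array medians subtracted (-0.014). Mfap5, also known as MAGP-2, had the smallest unadjusted p of the members. It read 9.14, 9.70 and 9.28 in WT and 9.32, 9.94 and 10.41 in IRF4 KO. In this gene WT 3 and IRF4 KO 1 were not high: their mean lay 0.50 below that of the other arrays. The means were 9.38 ± 0.29 and 9.89 ± 0.55, a difference of 0.51 (95% interval -0.18 to 1.20, limma adjusted p = 0.999). It was 0.25 without IRF4 KO 3 and 0.80 without IRF4 KO 1.

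Both Mfap5 probe sets gave a similar change over the 6 arrays. The second read 8.67, 9.12 and 9.17 in WT and 8.68, 9.77 and 10.06 in IRF4 KO, a difference of 0.52. On the 2 probe sets the other IRF4 KO arrays exceeded the other WT arrays by 0.75 and 1.02, while IRF4 KO 1 differed from WT 3 by 0.033 and -0.49.

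The fibulins are calcium-binding glycoproteins that link tropoelastin to microfibrils and to cells. Fibulin-5, which binds elastin and is needed for normal elastic fibres, is encoded by Fbln5. It read 10.64, 11.16 and 12.30 in WT and 12.44, 11.46 and 11.68 in IRF4 KO. Within each set every IRF4 KO array lay above every WT array, by 0.14 for the high pair and by 0.67 on average for the other 4. The means were 11.37 ± 0.85 and 11.86 ± 0.52, a difference of 0.49 (95% interval -0.50 to 1.49, limma adjusted p = 0.999). It was 0.96 with WT 3 left out, 0.20 with IRF4 KO 1 left out and 0.13 with WT 1 left out. A second, dimmer Fbln5 probe set read 4.31 ± 0.24 and 4.20 ± 0.58 and differed by -0.11.

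Fbln2 had the widest spread of the 9 genes, with a standard error of 0.76. Its product binds fibrillin and elastin and is found in the vessel wall and in remodelling tissue. It read 6.89, 7.27 and 9.15 in WT and 9.77, 7.16 and 7.70 in IRF4 KO, so that WT 3 and IRF4 KO 1 lay 2.20 log2 units, or 4.61-fold, above the other 4 arrays. The genotype means were 7.77 ± 1.21 and 8.21 ± 1.37, a difference of 0.44 with a 95% interval of -1.30 to 2.17. The change turned to -0.0053 without WT 1 and to -0.34 without IRF4 KO 1. The other Fbln2 probe set lay between 2.58 and 3.15 on all arrays, below the median probe set, and did not follow WT 3 and IRF4 KO 1.

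Fbln1 did not show the array pattern on any of its 3 probe sets. The brightest read 5.79, 6.26 and 5.86 in WT and 6.34, 5.86 and 6.32 in IRF4 KO, a difference of 0.20 (95% interval -0.31 to 0.72). The next read 4.16, 5.41 and 4.39 in WT and 5.90, 5.20 and 5.08 in IRF4 KO, a difference of 0.74 (SE 0.36) with the smallest unadjusted limma p of the 19 probe sets (0.0726). The third differed by -0.021. The spread of Fbln1 within a genotype, 0.25 in WT and 0.27 in IRF4 KO, was near the medians over all genes (0.25 and 0.28).

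The 3 fibulin genes differed in their array pattern, and the 250 bases before their most upstream RefSeq start are shown for comparison (RefSeq sequence, GRCm38.p6). For the other 6 measured members no promoter is shown. Fbln2 lies on the plus strand (chr6:91212514-91212763), Fbln5 on the minus strand (chr12:101819120-101819369) and Fbln1 on the plus strand (chr15:85205699-85205948). All are written 5′ to 3′ on the gene's strand, and capitals mark GC boxes (GGGCGG or its complement CCGCCC) and the CCAAT box.
Fbln2: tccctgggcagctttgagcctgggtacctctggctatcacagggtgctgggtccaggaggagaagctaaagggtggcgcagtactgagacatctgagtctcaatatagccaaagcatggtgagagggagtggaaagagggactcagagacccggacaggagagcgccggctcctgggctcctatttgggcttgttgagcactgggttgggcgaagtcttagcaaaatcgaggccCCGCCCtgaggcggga
Fbln5: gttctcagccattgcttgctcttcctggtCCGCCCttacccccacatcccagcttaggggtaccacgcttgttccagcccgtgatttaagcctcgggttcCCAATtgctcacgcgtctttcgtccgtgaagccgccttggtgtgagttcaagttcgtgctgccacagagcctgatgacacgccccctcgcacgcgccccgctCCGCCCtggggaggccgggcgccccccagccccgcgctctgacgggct
Fbln1: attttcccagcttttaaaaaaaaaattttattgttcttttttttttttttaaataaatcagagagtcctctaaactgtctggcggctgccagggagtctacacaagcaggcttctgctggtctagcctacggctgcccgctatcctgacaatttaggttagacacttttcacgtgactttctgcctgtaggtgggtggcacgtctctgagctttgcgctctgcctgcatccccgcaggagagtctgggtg
In all, 5 motifs were searched on both strands. The Fbln2 window held 1 GC box and the Fbln5 window 2 GC boxes and 1 CCAAT box (CCAAT or ATTGG), while the Fbln1 window held none of the motifs. That contrast depends on the start used, since the window of a second Fbln1 start, 59 bases downstream, held 1 GC box and had a GC content of 62.4%. The window of a second Fbln5 start, also downstream, held none of the motifs and had a GC content of 49.6%. A GC box is present in 32.7% of 32851 such windows and a CCAAT box in 33.8%. The interferon regulatory factor element, a pair of GAAA sites 2 bases apart (2.98% of windows), the AP-1 site TGANTCA (6.75%) and the TATA box TATAAA (12.4%) were in none of the 3 windows shown. The GC content was 58.8% for Fbln2, 65.2% for Fbln5 and 46.4% for Fbln1, against a median of 52.4%.

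Lox encodes lysyl oxidase, the copper enzyme that starts the crosslinking of elastin and collagen. It read 9.48, 10.10 and 11.58 in WT and 11.74, 10.52 and 10.58 in IRF4 KO. Within each set all IRF4 KO arrays lay above all WT arrays, by 0.16 in the high pair and by 0.76 on average in the other 4. Over the 6 arrays the means were 10.39 ± 1.08 and 10.95 ± 0.69, a difference of 0.56 (95% interval -0.68 to 1.80, limma adjusted p = 0.999). It was 0.11 without WT 1, 0.16 without IRF4 KO 1 and 1.15 without WT 3. The other Lox probe sets differed by 0.70 and 0.49, and the latter was dim on all arrays (2.06 to 3.22).

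Loxl1, a lysyl oxidase relative that acts with fibulin-5 in renewing elastin, showed the same order. It read 9.08, 8.83 and 10.16 in WT and 10.65, 9.53 and 9.64 in IRF4 KO. IRF4 KO 1 exceeded WT 3 by 0.49 and the other IRF4 KO arrays exceeded the other WT arrays by 0.63. The means were 9.35 ± 0.71 and 9.94 ± 0.62, a difference of 0.59 (95% interval -0.36 to 1.54, limma adjusted p = 0.999). Leaving out IRF4 KO 1 gave 0.23, leaving out WT 2 gave 0.32, and leaving out WT 3 gave 0.99. Its second probe set, at 5.94, 5.54 and 6.75 in WT and 6.73, 6.01 and 5.78 in IRF4 KO, differed by only 0.094.

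When spike-in level was added as a block, the estimates stayed as they were, because each set held equal numbers of each genotype, but the standard errors shrank. Their median over the members fell from 0.41 to 0.22, against 0.23 and 0.21 over all genes. With limma, 0 of 9 genes passed (0% of all genes), and the smallest adjusted p of the members was 0.995. At an unadjusted p under 0.05 there were 3 of 9, all higher in IRF4 KO, against 3.68% of all genes in either direction and 1.29% in that direction. These were Loxl1 (limma unadjusted p = 0.00891, 95% interval 0.18 to 0.99), Lox (0.0305, 0.063 to 1.05) and Fbln5 (0.0441, 0.016 to 0.97). In the block fit over probe sets, the second Loxl1 probe set had a limma unadjusted p of 0.627. The second Fbln5 probe set, lower in IRF4 KO, had 0.591, and the other Lox probe sets had 0.0721 and 0.0223. Over the 4 arrays without WT 3 and IRF4 KO 1, Lox (0.76, SE 0.28), Mfap5 (0.75, SE 0.29), Fbln5 (0.67, SE 0.28) and Loxl1 (0.63, SE 0.26) had limma unadjusted p values of 0.0185, 0.0226, 0.0318 and 0.0307. Their adjusted p was 0.999 in each case. Both sets had the higher level in IRF4 KO for 7 of 9 genes, against 26.3% of all genes. The set of WT 3 and IRF4 KO 1 compared 1 array per genotype, and there Eln and Mfap5 were higher by only 0.019 and 0.033.

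**Figure D2:**
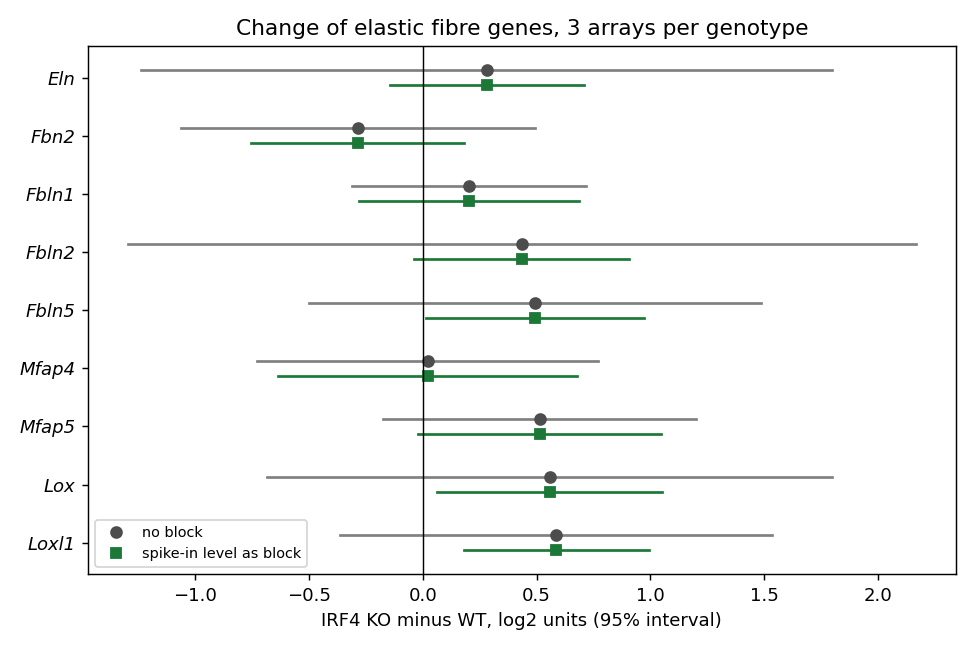
IRF4 KO minus WT in log2 units for 9 genes, with 95% intervals from limma without a block (grey circles) and with spike-in level as block (green squares). All 9 grey intervals include 0, while the green intervals of Fbln5, Lox and Loxl1 lie above it before any adjustment for the number of genes.

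Over the 19 probe sets, 14 had the higher mean in IRF4 KO and 0 were called (0% of 45037 probe sets). The genotypes overlapped in all 19, while 5.99% of all probe sets had no overlap. Of the 8 genes with several probe sets, Fbln1, Fbln2 and Fbln5 had probe sets in both directions, Fbn2 had both lower, and Eln, Mfap5, Lox and Loxl1 had all higher. WT 3 and IRF4 KO 1 were the 2 highest arrays in 12 of 19 probe sets, against 13% of all probe sets. Every probe set of Eln, Fbn2, Fbln5, Lox and Loxl1 was among the 12.

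**Figure D3:**
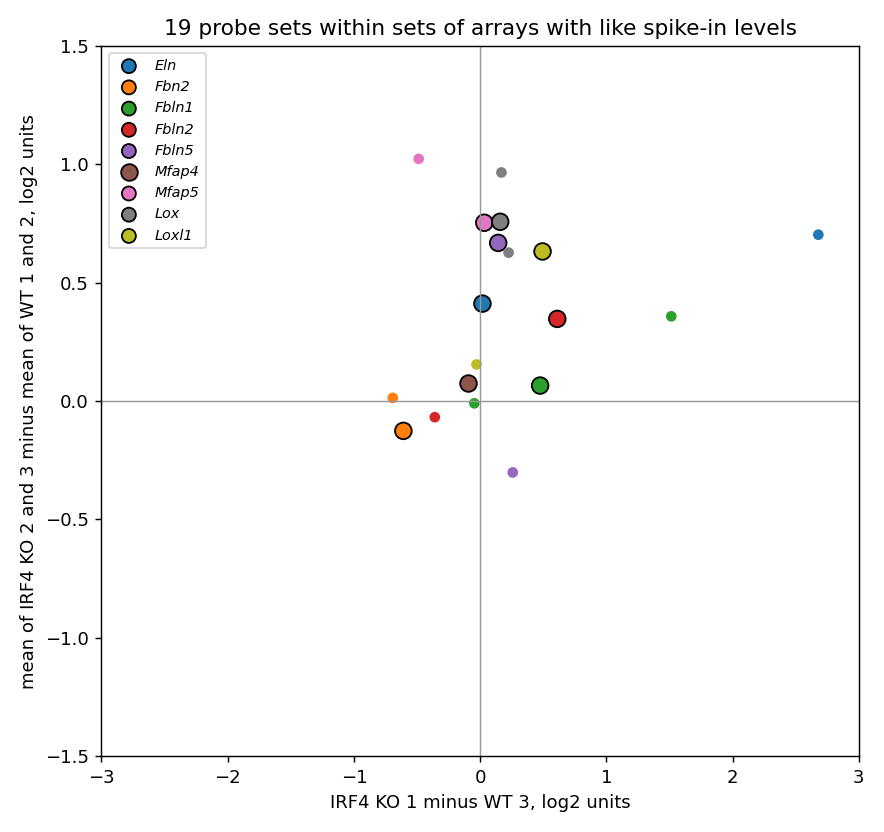
Difference between genotypes in log2 units for each of 19 probe sets within the pair IRF4 KO 1 and WT 3 (horizontal) and within the other 4 arrays (vertical). Large outlined points are the probe sets used for the genes. The dimmer Eln probe set lies far to the right at 2.68, while the one used for the gene lies at 0.019.

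Marker genes of other tissues moved with the same pair of arrays. Col2a1, the main collagen of cartilage, was at 12.07 (WT 3) and 12.16 (IRF4 KO 1) but at 3.75 to 5.15 elsewhere, and the cartilage proteoglycan Acan 9.78 and 9.59 against 5.29 to 6.19. The pair was highest in 14 of 16 cartilage markers and in 12 of 16 macrophage markers, including the protease gene Ctss (8.87 and 11.07 against 4.93 to 7.45). It was highest in 5 of 11 markers of adventitial fibroblasts, 5 of 12 of endothelium, 1 of 10 of adipocytes, 0 of 14 of skeletal muscle and 0 of 14 of smooth muscle. Relative to the mean of all arrays, the mean cartilage level was 2.07 and 2.29 in the pair and -1.25 to -0.91 in the others, and the macrophage level 1.39 and 2.29 against -1.22 to -0.50. The fibroblast level was 0.37 and 0.75 against -0.32 to -0.23. The endothelial level was 0.29 and 0.52 against -0.48 to 0.00089, and the smooth muscle level -0.23 and -0.28 against -0.16 to 0.33. The elastic fibre genes averaged 0.55 and 0.69 in the pair and -0.60 to 0.066 in the others. The part of these tissues in the levels of the elastic fibre genes was not tested. In whole vessels, more cells of a type and more RNA per cell cannot be told apart.

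**Figure D4:**
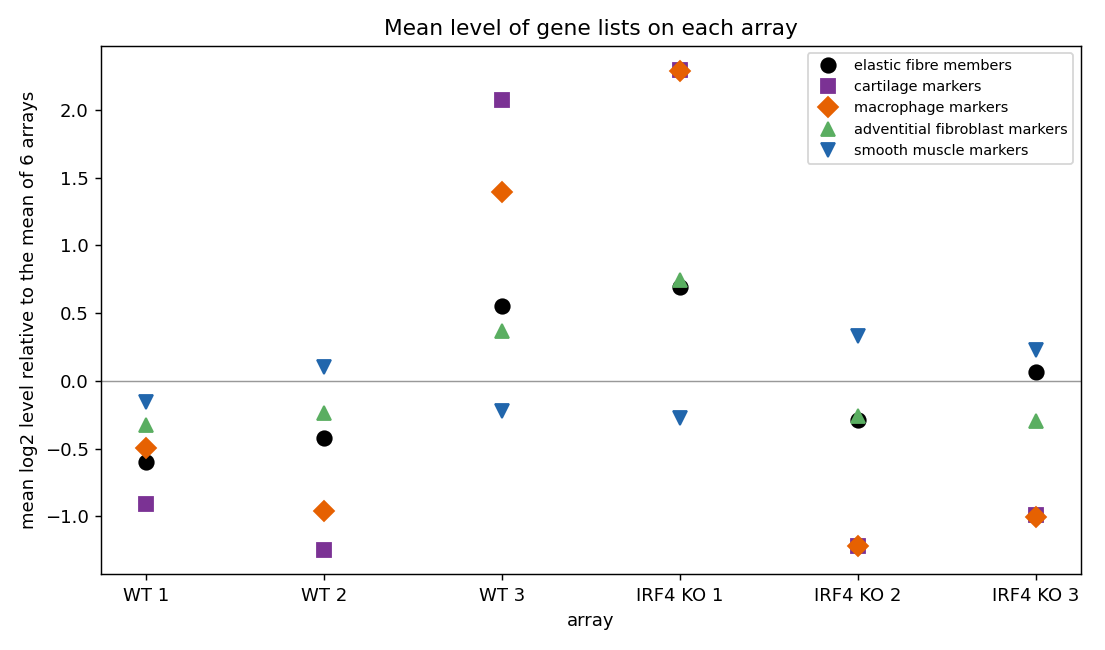
Mean log2 level of 5 gene lists on each array, relative to the mean of the 6 arrays. The elastic fibre genes (black circles) are highest in WT 3 (0.55) and IRF4 KO 1 (0.69), as are the cartilage, macrophage and adventitial fibroblast markers. The smooth muscle markers are lowest there.

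Partner genes of the fibre were read for the same comparison, and 0 of them passed in limma. Of 25 measured genes of fibre assembly, 21 were higher and 4 lower in IRF4 KO, with a median change of 0.17 and 0 at an unadjusted p under 0.05. The 3 with the smallest p were lower: Mmrn2, an EMILIN-family gene of endothelium (9.33 ± 0.33 in WT, 8.98 ± 0.13 in IRF4 KO), Mfap3l (2.68 ± 0.28 and 2.36 ± 0.08) and Hmcn1, a large relative of the fibulins (3.22 ± 1.33 and 2.40 ± 0.42). Hmcn1 read 4.75 in WT 3 and 2.12 to 2.88 on all other arrays, and its change of -0.83 was -0.062 without WT 3. The differences of Mmrn2 and Mfap3l were -0.34 and -0.32, and -0.16 and -0.17 without WT 3. The other Mmrn2 probe sets differed by -0.59, -0.19 and 0.12.

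Among 11 genes that act with the oxidases, 7 were higher, with a median change of 0.046. Pcolce2, an enhancer of procollagen processing, read 8.60, 8.94 and 8.91 in WT and 9.19, 9.48 and 9.35 in IRF4 KO, with no overlap and without following WT 3 and IRF4 KO 1. Its change was 0.53 (SE 0.19, limma unadjusted p = 0.0250, adjusted p = 0.999). The matricellular gene Postn, whose product helps to activate lysyl oxidase, differed by 0.26 and Tll1, a tolloid protease, by -0.19.

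Of 20 genes for elastin-degrading enzymes and their inhibitors, 15 were higher, with a median change of 0.15. The gelatinase gene Mmp2 read 8.01, 7.93 and 7.65 in WT and 8.98, 9.04 and 9.32 in IRF4 KO, with no overlap. The difference was 1.25 (limma unadjusted p = 0.000201, adjusted p = 0.252), and 1.12 on its other probe set. That adjusted p was the smallest over all genes, shared with other genes, and did not pass. Timp3, a matrix-bound inhibitor of metalloproteinases, differed by 0.44 (0.18 without WT 1) and was higher on all 4 of its probe sets (0.44 to 1.06), and Timp4 differed by -0.52 (-0.26 without WT 2, -0.93 without WT 3) and, on its other probe set, by 0.075. Of 11 elastin receptor genes, 7 were higher, with a median of 0.22. The integrin chains Itgb1, Itgb5 and Itgb6 differed by 0.79, 0.43 and 0.31 (limma adjusted p = 0.999 each), and Itgb6 was dim on all arrays. Itgb1 differed by 0.34 without WT 1, Itgb5 by 0.28 without IRF4 KO 1 and Itgb6 by 0.15 without IRF4 KO 3. The other Itgb5 probe sets differed by 0.44, 0.030 and -0.12, those of Itgb1 by -0.022 to 0.86, and that of Itgb6 by 0.15.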

How the data were processed

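In all, 6 arrays were analysed, 3 per genotype; per the labels each was hybridised with biotin-labelled cRNA from 400 ng of RNA. The deposited values are log2 intensities that the authors made with Affymetrix Expression Console and RMA, per the submitters' processing notes; no versions are named. RMA compresses the changes of dim probe sets. Of 45101 probe sets, 34958 had 1 gene symbol, and symbols were checked against the RefSeq table of GRCm38.p6 (0 changed). Each of 18194 genes took its brightest probe set. Genotypes were compared by limma (version 3.58.1, R 4.3.3; two-sided moderated test without covariate). The threshold was 0.05 after Benjamini-Hochberg adjustment, taken over all genes or over the 45037 probe sets that are no controls. The labels call the arrays of a genotype biological replicates, without saying which mice each pool held. The number of arrays limits the precision. The test was checked on simulated data with independent noise over 18194 genes, where it called 2 unchanged genes.

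The members, lists and tests were chosen with earlier results of these data known. The named genes were all members and, per partner list, the 3 genes with the smallest p, with Col2a1, Acan, Ctss and Myh11 as markers. Acta2, Tagln and Smtn were named after their values were seen. The replicate numbers did not pair the arrays: same-numbered arrays had correlations of -0.52, 0.37 and -0.62 between their deviations from the genotype means. Alternatives were another probe set rule, a filter on dim genes, other scalings, a robust trend, array weights, blocks, leaving out arrays and another threshold.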

Additional observations from a re-analysis of the deposited data

How the results depend on the processing

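No member gene and no member probe set was called by limma under any of the alternatives run, the threshold of 0.10 included, and the partner lists kept 0 calls except with array weights. Of 134 values of single member genes, 36 equal the value without the alternative, nearly all by construction (both blocks, the robust trend and the dim filter leave estimates alone). Of the other 98, 85 kept their direction and 13 reversed. The number of members at an unadjusted p under 0.05 was 0 over the 6 arrays and 3 with the poly-A spike-in block. It was 4 over the 4 arrays without WT 3 and IRF4 KO 1, and 0 to 3 with 1 array left out. Those with 1 array left out were Fbln5, Lox and Loxl1 without WT 3, and Mfap5 without IRF4 KO 1. Over all genes the number was 271 over the 6 arrays, 670 with that block and 705 over the 4 arrays. It was 388 without WT 3, 742 without IRF4 KO 1 and 166 to 291 without any other single array. Array weights gave 3 such members (Loxl1 and Mfap5 higher, Fbn2 lower) among 4252 genes, with 68 genes called, among them 1 partner gene, Mmp2; that weighting stopped before it converged. It also turned Fbln1 to -0.29, Fbln2 to -0.28, Mfap4 to -0.22, the third Fbln1 probe set to 0.038 and the second Lox probe set to -0.093. Subtracting array medians turned Mfap4 to -0.014, and the 4 arrays turned the second Fbn2 probe set to 0.014. With 1 array left out, values that changed sign ran from -0.30 to 0.99 for Eln, -0.47 to 0.061 for Fbn2, -0.34 to 1.13 for Fbln2 and -0.24 to 0.31 for Mfap4. On other probe sets they ran from -0.67 to 0.25 for Fbn2, -0.14 to 0.10 for Fbln1, -0.43 to 0.15 for Fbln5 and -0.18 to 0.43 for Loxl1. The replicate block called 0 members, left their median change at 0.44, and lowered the genes at an unadjusted p under 0.05 from 271 to 128. With dim genes left out, Fbn2 was not tested. The causes of these differences were not tested, and the number of arrays limits what can be detected.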

Other observations

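Some partners of the fibre followed the same arrays as Eln, and the genes in this paragraph were named after their values were seen. Ltbp2, a latent TGF-beta binding protein gene whose product associates with microfibrils, was at 9.74 (WT 3) and 10.33 (IRF4 KO 1) but at 6.39 to 7.23 in the others. Mfap2, which encodes the microfibril protein MAGP-1, read 7.62 and 7.98 against 6.04 to 6.39, and Loxl3, another lysyl oxidase relative, 8.69 and 9.01 against 7.23 to 7.60. Emilin1, an elastin-associated glycoprotein gene, read 8.93 and 9.23 against 7.69 to 8.49. Efemp1, the fibulin-3 gene, went the other way, at 7.15 and 7.02 against 7.54 to 8.08. WT 3 and IRF4 KO 1 were the 2 highest arrays in 12 of 25 fibre assembly genes and in 6 of 11 crosslinking partners, against 17.5% of all genes. Ltbp4, needed for elastic fibre assembly, measured 6.50, 6.74 and 8.08 in the WT arrays and 8.18, 7.39 and 7.46 in those of IRF4 KO. Its change of 0.57 was 0.27 without WT 1, 0.32 without IRF4 KO 1 and 1.06 without WT 3. With the spike-in block, 3 of the 25 fibre assembly genes had a limma unadjusted p under 0.05, against 3.68% of all genes. These were Hmcn1 (-0.83, limma unadjusted p = 0.0162, adjusted p = 0.995), Ltbp4 (0.57) and Ltbp2 (0.53). Hmcn1 was high in WT 3 alone (4.75), and without that array its change was -0.062. For Ltbp4 and Ltbp2 the limma unadjusted p = 0.0195 and 0.0238, with an adjusted p of 0.995 for each. The Ltbp2 change was 0.030 without WT 1, -0.064 without WT 2, -0.59 without IRF4 KO 1 and 1.61 without WT 3.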
